A study of Solanum lycopersicum with 12 samples.

Results

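The response of tomato (Solanum lycopersicum) roots to cadmium was read from 6 of the 12 arrays of a study of roots and leaves. The differences rest on these 6, while p-values, intervals and calls also drew on the spread among the leaf arrays. Members were taken by title, namely the 3 arrays named root-Cd and the 3 arrays named root-ck, whose source label says without Cd. The labels name no agent besides Cd and no mutant or transgene, and they give no dose, exposure time, plant age, cultivar or growth medium. Whether the 3 arrays of a group stand for separate plants is not stated, so the p-values cover the spread among arrays alone, and that spread may be technical. Each array measured 10038 probe sets besides its control probe sets, and all of them were tested. Of these, 909 carry a gene symbol and stand for 801 genes, while 9129 are unnamed here.

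Cadmium is a metal that plants do not need. It enters root cells through carriers meant for nutrient metals such as iron, zinc and manganese, and it binds strongly to thiol groups. Plants hold it in the vacuole with phytochelatins, peptides made from glutathione, so that its detoxification draws on sulfate uptake and on cysteine synthesis. In roots, Cd is also known to disturb iron nutrition and to provoke oxidative stress, defence genes and changes in cell walls.

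All values are log2 expression as deposited, differences are Cd minus control, and errors are SD over 3 arrays. Root arrays had medians between 7.46 and 7.50. The background of an array, taken as the highest of its 23 negative control probe sets, lay between 3.13 and 3.57. Cd arrays correlated with each other at 0.979 to 0.988, control arrays at 0.979 to 0.994, and arrays of different groups at 0.956 to 0.981. The first principal component held 52.7% of the variance among root arrays and placed Cd 1, Cd 2 and Cd 3 at 28.9, 26.2 and 17.3. It placed control 1, control 2 and control 3 at -18.4, -13.6 and -40.4, so both groups stood apart and control 3 lay at the far end. The second component, with 21.5%, set Cd 2 (-29.2) and control 3 (-14.8) against the other arrays (5.40 to 16.6), across both groups.

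Of the 10038 probe sets, 304 (3.03%) passed an adjusted p under 0.05 by limma, 107 (1.07%) higher and 197 (1.96%) lower with Cd. At an unadjusted p under 0.05 the count was 1744 (17.4%). All 3 Cd values lay on one side of all 3 control values in 2754 probe sets (27.4%), in 1355 above and in 1399 below. The median difference over all probe sets was 0.02, with quartiles of -0.17 and 0.19. Rises were fewer than falls and had the greater extremes. Among the 107 rises, 28 were under 2-fold, 53 between 2-fold and 4-fold, 18 between 4-fold and 8-fold and 8 larger. Among the 197 falls, these classes held 54, 115, 23 and 5 probe sets. The median rise was 1.36 and the median fall was -1.28.

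**Figure D1:**
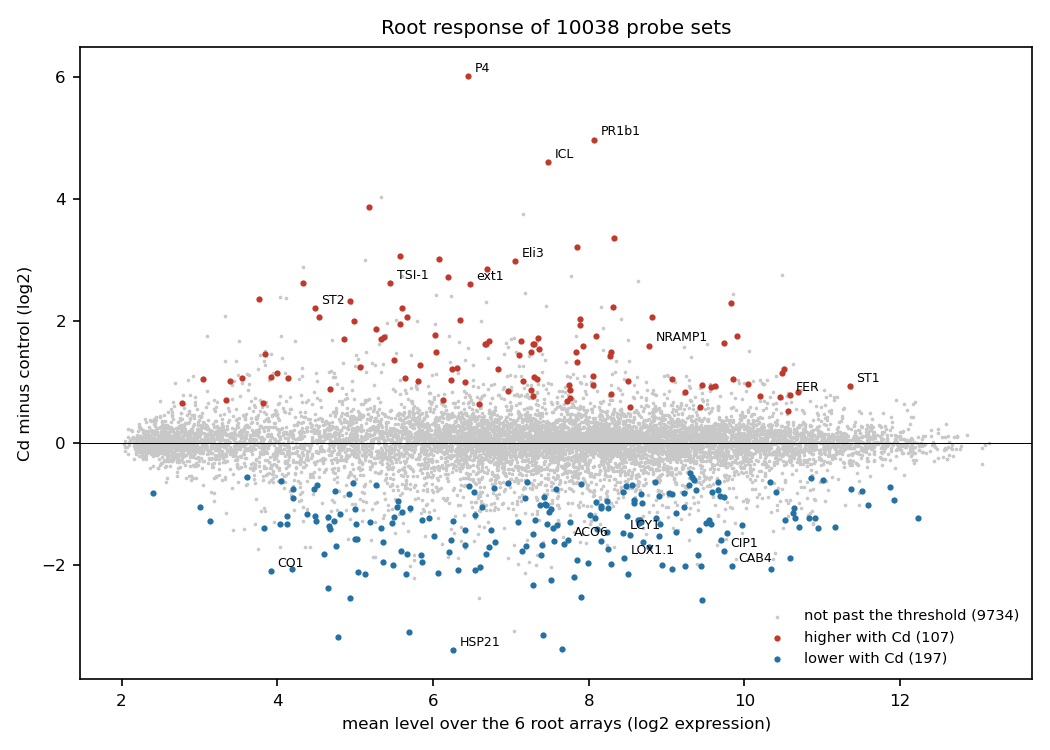
Difference between Cd and control roots (log2, vertical axis) against the mean level over the 6 root arrays (log2 expression, horizontal axis), 1 point per probe set. Red points are the 107 probe sets higher with Cd, blue points the 197 lower and grey points the others; P4 (6.02) lies highest among the labelled genes and HSP21 (-3.39) lowest.

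The calls were spread over all levels of expression. With probe sets sorted by level into 5 equal classes, the dimmest held 16 rises and 28 falls, the next 33 and 49, the middle one 29 and 34, the next 12 and 50 and the brightest 17 and 36. Falls outnumbered rises in each class. Cd arrays varied slightly more than controls, with a median SD of 0.19 in Cd roots and 0.15 in control roots, and the SD was larger in Cd for 57.5% of probe sets. The balance of rises and falls differed between settings. With the 6 root arrays fitted alone it was 108 higher and 94 lower (202 in all), and with array numbers as a block in that fit 75 higher and 187 lower. Of the 304 calls, 149 were shared with the fit of root arrays alone and 140 with the block. Array weights gave 1873 higher and 1872 lower, and quantile normalization of the root arrays 105 higher and 102 lower. Without Cd 3 it was 111 higher and 298 lower, and without Cd 1 39 higher and 46 lower.

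Among the 801 genes with a symbol, 37 (4.62%) passed, 18 higher and 19 lower, and among unnamed probe sets 261 (2.86%). The Cd and control values of 262 genes (32.7%) did not overlap. Of the 37 genes, Dif54 alone had overlapping groups, with 9.34, 9.59 and 7.97 on the Cd arrays, against 6.78, 6.84 and 8.01 on the control arrays (difference 1.76, adjusted p = 0.0447). With root arrays alone 19 of the 37 genes passed. Without Cd 1, Cd 2, control 1 or control 3 the number of those 37 that passed was 13, 16, 16 and 17. The 10 that passed whichever single root array was left out were LOC544276, PR1b1, LOC543602 and LOC543717 among the rises, and CO1, CIP1, ACO6, LCY1, NCED1 and PSY2 among the falls.

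**Figure D2:**
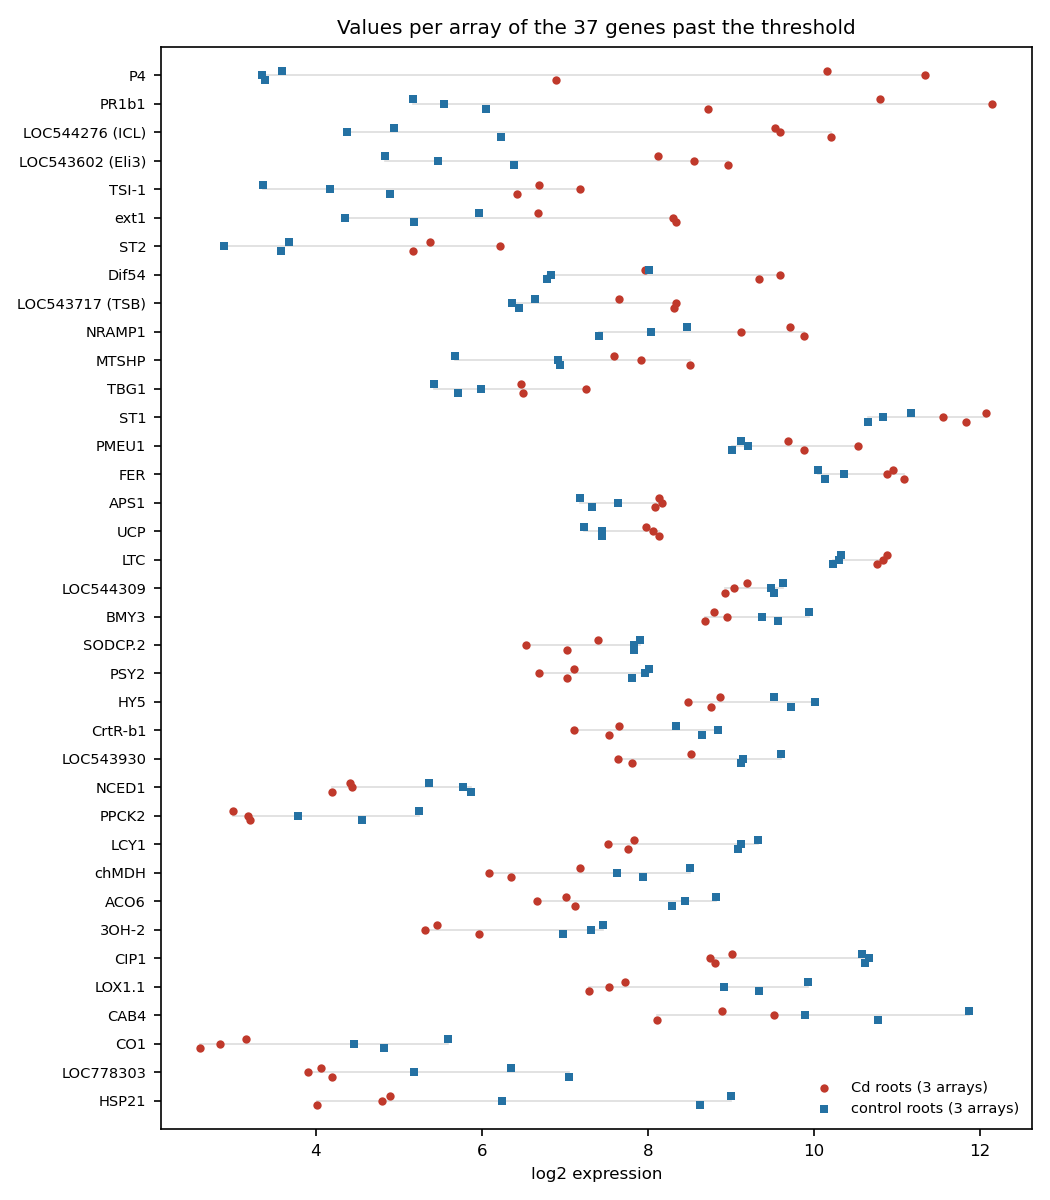
Log2 expression (horizontal axis) on each root array of the 37 genes past the threshold, ordered from the largest rise at the top to the largest fall at the bottom. Red circles are the 3 Cd arrays and blue squares the 3 control arrays, joined by a grey line; the groups are apart in every gene but Dif54, and P4 and PR1b1 spread most among the Cd arrays.

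The tallest rises were those of pathogenesis-related proteins, which plants make on infection and wounding. P4, a member of the PR-1 family of extracellular antimicrobial proteins, had 6.89, 11.34 and 10.16 in Cd roots, against 3.38, 3.35 and 3.59 in control roots. The lowest Cd array thus lay above every control array by more than the whole control range. The difference was 6.02 (95% interval 3.73 to 8.31, adjusted p = 0.0132, 64.9-fold), with control 2 at background. Control 1 and control 3 lay close to their backgrounds of 3.18 and 3.39, so the fold rests on control values near the floor. PR1b1, of the same family, had 8.72, 12.15 and 10.80 in Cd roots, against 6.05, 5.54 and 5.17 in control roots (difference 4.97, interval 3.45 to 6.50, adjusted p = 0.00481). Both genes followed 1 order among Cd arrays, with Cd 2 highest and Cd 1 lowest. A further probe set of PR1b1 was at background on all root arrays.

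TSI-1, a stress-induced protein of the PR-10 type, had 6.42, 7.18 and 6.69 in Cd roots, against 4.89, 4.17 and 3.37 in control roots, a rise of 2.62 (interval 1.39 to 3.86, adjusted p = 0.0337). The nearest arrays of its groups lay more than 1.5 log2 units apart. P4, PR1b1 and TSI-1 were the 3 of 14 listed genes of this class that passed (21.4%, against 4.62% of genes with a symbol), and 0 of the 14 fell. All 14 differences lay above 0 (median 1.37, or 1.05 with genes at background counted at their bound, against 0.05 over all genes). The groups were apart in 9 of 14, against 32.7% of genes with a symbol. Here and below, the lists were written with earlier results of these data known, so a share above 4.62% can reflect that choice. P4 missed the threshold without control 1 (adjusted p = 0.0506), and TSI-1 without any 1 of the other arrays (0.0567 to 0.131). The median of the list was 0.82 without Cd 2 and 0.61 with array weights.

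The chitinases, which cut fungal cell walls, gave values on the same side without passing. CHI3 had 8.87, 10.37 and 10.65 in Cd roots, against 7.82, 7.17 and 6.93 in control roots (difference 2.66, adjusted p = 0.113). CHI14 had 8.10, 6.52 and 7.69 in Cd roots, against 5.80, 5.20 and 4.09 in control roots (2.40, adjusted p = 0.0682). In both genes the groups did not overlap. The brightest members, the chitinase CHI9 (12.29 ± 0.28 in Cd roots and 11.59 ± 0.27 in control roots), the osmotin-like NP24-I (12.49 ± 0.14 and 11.85 ± 0.52 in the same order) and the glucanase GluB (12.36 ± 0.05 and 11.81 ± 0.58), differed by 0.55 to 0.70. Their adjusted p lay between 0.139 and 0.250.

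In several defence genes the Cd arrays lay far apart from each other. PR-P2, a chitin-binding protein, had 3.77, 8.18 and 6.32 in Cd roots, against 4.26, 3.34 and 3.79 in control roots (2.29, adjusted p = 0.526). P69B, a subtilisin-like protease, had 2.62, 6.75 and 3.68 in Cd roots and was at background on all control arrays (at least 2.05-fold higher, adjusted p = 0.462). The peroxidase CEVI-1 had 2.98, 7.24 and 2.91 in Cd roots, above background on Cd 2 only, and was at background in control roots (at least 2.09-fold higher, adjusted p = 0.268). Cd 2 was the highest array for each, and for 8 of the 14 pathogenesis-related genes, against 1985 of all 10038 probe sets. The protease pip1 had 3.82, 7.69 and 5.79 in Cd roots and was at background in control roots (at least 5.47-fold higher, adjusted p = 0.242).

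Signalling genes of defence gave no call in 18 genes (median difference 0.20). PTI5, a transcription factor of the ethylene response family that binds the resistance kinase Pto, had 9.51, 8.71 and 9.58 in Cd roots, against 7.65, 7.04 and 6.43 in control roots. The groups were apart, and the difference of 2.23 did not pass (interval 0.31 to 4.14, adjusted p = 0.209). Its SD among leaf controls, which enter the shared spread, was 1.85. Its relative PTI6 stood on the other side, at 9.03, 9.37 and 9.05 in Cd roots, against 9.97, 9.91 and 10.24 in control roots (-0.89, adjusted p = 0.0570). Ve1, a receptor of resistance to Verticillium, had 5.31, 5.90 and 5.44 in Cd roots, against 3.73, 4.05 and 3.81 in control roots (1.69, adjusted p = 0.0585). Its neighbour Ve2 differed by 0.96 (adjusted p = 0.268), the NADPH oxidase Wfi1 by 0.37 and the salicylate regulator NPR1 by 0.39. With root arrays alone PTI5 (adjusted p = 0.0362), PTI6 (0.0383) and Ve1 (0.0119) passed.

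After P4 and PR1b1, the named gene with the largest rise was metabolic. LOC544276, listed as ICL, isocitrate lyase, which lets cells make sugars from fat through the glyoxylate cycle, had 10.21, 9.60 and 9.54 in Cd roots, against 6.23, 4.37 and 4.95 in control roots. The nearest arrays of the groups lay more than 3 log2 units apart, and the difference was 4.60 (interval 3.68 to 5.53, adjusted p = 0.000618). LOC543602, listed as Eli3 after an elicitor-activated gene of parsley, had 8.97, 8.56 and 8.12 in Cd roots, against 6.39, 5.47 and 4.83 in control roots (2.98, interval 2.07 to 3.90, adjusted p = 0.00481). Its dimmer probe set also rose, with 4.09 ± 0.22 in Cd roots and all control arrays at background (adjusted p = 0.00965). LOC543717, for which the tables give only the synonym TSB, had 8.31, 8.35 and 7.65 in Cd roots, against 6.45, 6.36 and 6.64 in control roots (1.62, interval 1.19 to 2.05, adjusted p = 0.00227).

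Of 5 iron uptake and metal transport genes 2 rose and 0 fell (median 0.50, and 0.90 with array weights). That was 40% of a short list, against 4.62% of genes with a symbol. NRAMP1, a carrier of iron and other divalent metals, had 9.88, 9.13 and 9.72 in Cd roots, against 7.42, 8.03 and 8.47 in control roots. The groups were apart, and the difference was 1.60 (interval 1.01 to 2.19, adjusted p = 0.0120). FER, the bHLH transcription factor that switches on iron uptake in tomato roots, had 11.09, 10.89 and 10.95 in Cd roots, against 10.14, 10.36 and 10.05 in control roots (0.79, interval 0.43 to 1.15, adjusted p = 0.0300). Its groups did not overlap either. NRAMP3, of the same carrier family, had 11.02 ± 0.05 in Cd roots and 10.52 ± 0.11 in control roots without passing (0.50, adjusted p = 0.0806), and Nramp2 differed by -0.08.

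FRO1, the ferric chelate reductase of iron uptake, did not pass. It had 5.35, 4.53 and 4.68 in Cd roots, against 3.10, 5.84 and 6.77 in control roots, so that the control arrays spanned the Cd arrays on both sides (-0.39, interval -2.08 to 1.31, adjusted p = 0.884). A list written as markers of the root epidermis and root hairs shares 3 genes with the iron list, and their cell type was not checked here. Of its 6 genes 3 rose (the iron genes NRAMP1 and FER, and ext1), or 50% against 4.62% of genes with a symbol called. None of the 6 was at background in either group. FRO1, the potassium channel LKT1 (-0.51, adjusted p = 0.324) and the phosphate transporter PT2 (0.65, 0.478) did not pass, and the groups overlapped in each. The summed unlogged level of the 6 genes was 3615, 2923 and 3128 in Cd roots, against 1407, 1832 and 1716 in control roots. The sum includes the iron genes that rose, and the part of epidermal tissue in these results was not tested. NRAMP1 missed the threshold without Cd 1 (adjusted p = 0.0587) and with root arrays alone (0.0605), and FER without Cd 1, Cd 2, control 1 or control 3 (0.0638 to 0.134).

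Sulfate transport genes rose, and the enzymes that use sulfur did not pass. ST2, a sulfate transporter, had 5.17, 6.22 and 5.37 in Cd roots, against 3.58, 2.89 and 3.67 in control roots (2.21, interval 1.35 to 3.06, adjusted p = 0.0141), with control 2 at background. ST1, its relative, lay near the top of the scale at 11.84, 11.56 and 12.07 in Cd roots, against 10.65, 10.84 and 11.18 in control roots (0.93, interval 0.56 to 1.31, adjusted p = 0.0159). In both genes every Cd array exceeded every control array. The enzymes of glutathione synthesis lay higher too, GSH1 at 10.32 ± 0.12 in Cd roots and 9.77 ± 0.28 in control roots (0.55, adjusted p = 0.175). GSH2 had 9.67, 9.64 and 9.43 in Cd roots, against 9.01, 9.03 and 8.94 in control roots (0.59, interval 0.20 to 0.97, adjusted p = 0.102).

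The sulfate and sulfur amino acid list thus had 2 rises and 0 falls in 7 genes (28.6% called, against 4.62% of genes with a symbol), with a median of 0.55. ST2 missed the threshold without Cd 2 (adjusted p = 0.0519), and ST1 without Cd 1 (0.0747), without control 1 (0.0728) and with root arrays alone (0.0653). Metallothioneins, small cysteine-rich proteins that bind metals, and copper chaperones gave 0 calls in 7 genes (median 0.23, and 0.11 without control 1). LEMT1 had 12.60 ± 0.04 in Cd roots and 12.37 ± 0.08 in control roots (0.23, adjusted p = 0.272). For MT2, at 12.45 ± 0.11 in Cd roots and 12.34 ± 0.18 in control roots, the interval of the difference was wide (-1.95 to 2.18), and its SD among leaf controls was 1.0. The chaperone CCH differed by 0.25 and CCS, which loads copper into superoxide dismutase, by -0.03.

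Among antioxidant enzymes, 1 of 18 fell and 0 rose (median -0.04). This share of 5.56% lay near the 4.62% of all genes with a symbol. SODCP.2, the copper/zinc superoxide dismutase of chloroplasts, had 7.03, 6.54 and 7.40 in Cd roots, against 7.83, 7.84 and 7.91 in control roots (-0.87, interval -1.32 to -0.43, adjusted p = 0.0447). The control arrays agreed within 0.1 log2 units, and the Cd arrays all lay below them. SODCC.1, its cytosolic relative, had 11.79 ± 0.12 in Cd roots and 12.32 ± 0.15 in control roots (-0.53, adjusted p = 0.105), and DHAR2, which renews ascorbate, had 9.79 ± 0.22 and 10.42 ± 0.27 in the same order (-0.63, adjusted p = 0.0808). Catalases lay on both sides, CAT2 at -0.32 and cat1 at 0.31. The call of SODCP.2 was lost with root arrays alone (adjusted p = 0.0943) and without any single array but Cd 3 (0.0823 to 0.147).

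Small heat shock proteins, chaperones that hold unfolding proteins in solution, moved both ways. HSP21, which works in plastids, had 4.01, 4.79 and 4.89 in Cd roots, against 8.63, 6.24 and 9.0 in control roots, the largest fall of a named gene (-3.39, interval -4.73 to -2.05, adjusted p = 0.0149). MTSHP, its mitochondrial relative, rose, with 8.51, 7.92 and 7.59 in Cd roots, against 6.95, 6.92 and 5.67 in control roots (1.49, adjusted p = 0.0394). The cytosolic HSP17.4 had 8.40, 6.48 and 5.51 in Cd roots, against 4.92, 4.70 and 4.74 in control roots (2.01, adjusted p = 0.0882). In all 3 genes the groups were apart. HSP21 and MTSHP were the 2 calls in 8 genes (25%, against 4.62% of genes with a symbol, median -0.13). With root arrays alone neither passed (adjusted p = 0.0689 and 0.109), HSP21 missed the threshold also without Cd 1, control 1 or control 3 (0.0568 to 0.0770), and MTSHP without Cd 1, Cd 2, control 1 or control 3 (0.0591 to 0.169).

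Genes of the photosynthetic apparatus were above background on all 6 root arrays and lay lower with Cd. CAB4, a chlorophyll-binding protein of the light-harvesting antenna, fell, with 8.11, 9.52 and 8.89 in Cd roots, against 10.77, 9.89 and 11.88 in control roots (-2.01, interval -3.0 to -1.01, adjusted p = 0.0401). CAB5, of the same family, had 4.76, 5.64 and 6.10 in Cd roots, against 8.29, 6.90 and 10.52 in control roots (-3.07, interval -4.71 to -1.43, adjusted p = 0.0530). In both genes control 3 was highest and Cd 1 lowest. CAB4 was the 1 call in 9 genes of this list (11.1%, against 4.62% of genes with a symbol). All 9 differences lay below 0 (median -0.95), and all 9 had an unadjusted p under 0.05, against 17.4% of all probe sets. The groups were apart in 6, against 32.7% of genes with a symbol.

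The other members differed by less. CAB6A had 10.23 ± 0.54 in Cd roots and 11.40 ± 0.70 in control roots (-1.17, adjusted p = 0.0843). PsbQ, PSBP and PSBO, of the water-splitting complex, differed by -1.02, -0.91 and -0.81, the electron carrier PETE by -0.95 and the photosystem I subunit LOC543978 by -0.76. PSBR, the brightest member, differed by -0.25 (12.47 ± 0.11 in Cd roots and 12.72 ± 0.07 in control roots, adjusted p = 0.234). Control 3 was the highest root array for all 9 genes, against 19.98% of all probe sets. Cd 1 was the lowest for 8 of 9, against 13.0% of all probe sets.

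These 9 genes are also the markers of green tissue. Their summed unlogged level was 12212, 15040 and 18578 in Cd roots, against 23762, 19577 and 37696 in control roots, and 0 of 9 were at background. All 9 exceeded 10 on the log2 scale in leaf controls. In whole roots, fewer cells of a type and less RNA per cell cannot be told apart, and the part of green tissue in this result was not tested. Without control 3 the median of the list was -0.64 and without Cd 1 it was -0.77, both with 0 calls, while without control 2 it was -1.18 with 4 calls. CAB4 did not pass without control 3 (adjusted p = 0.115), Cd 1 (0.169), control 1 (0.107) or Cd 3 (0.0654), or with root arrays alone (0.116).

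Of 10 carotenoid synthesis genes 3 fell and 0 rose (30% called, against 4.62% of genes with a symbol, median -1.02). LCY1, the lycopene cyclase that makes the ring ends of carotenes, had 7.76, 7.52 and 7.83 in Cd roots, against 9.09, 9.12 and 9.33 in control roots (-1.48, interval -1.84 to -1.11, adjusted p = 0.00129). Its replicates agreed within 0.4 log2 units in both groups. PSY2, a phytoene synthase at the entry of the pathway, had 7.03, 6.68 and 7.11 in Cd roots, against 7.81, 7.97 and 8.02 in control roots (-0.99, interval -1.35 to -0.64, adjusted p = 0.0103). CrtR-b1, a carotene hydroxylase, had 7.54, 7.11 and 7.65 in Cd roots, against 8.65, 8.84 and 8.34 in control roots (-1.18, interval -1.74 to -0.61, adjusted p = 0.0370). Cd 2 was lowest for these genes and for 7 of the 10 on the list, against 2336 of all 10038 probe sets. For the photosystem genes Cd 1 was lowest in 8 of 9.

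Other carotenoid genes did not pass. ZEP, zeaxanthin epoxidase, had 8.24 ± 0.42 in Cd roots and 9.46 ± 0.55 in control roots (-1.22, adjusted p = 0.0607), and CRTL-E-1, the lycopene epsilon-cyclase, 5.24 ± 0.44 and 6.49 ± 0.89 in the same order (-1.24, adjusted p = 0.161). The desaturases PDS and ZDS lay nearer to 0 at -0.29 and -0.30, as did DXS of the precursor pathway at 0.03. Psy1 was split by its probe sets, at -1.05 (adjusted p = 0.0757), 1.27 (0.0772) and -1.27 (0.0127). CrtR-b1 missed the threshold when any 1 array but Cd 3 was left out (0.0619 to 0.118). The median of the list lay between -1.12 and -0.82 without single arrays.

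**Figure D3:**
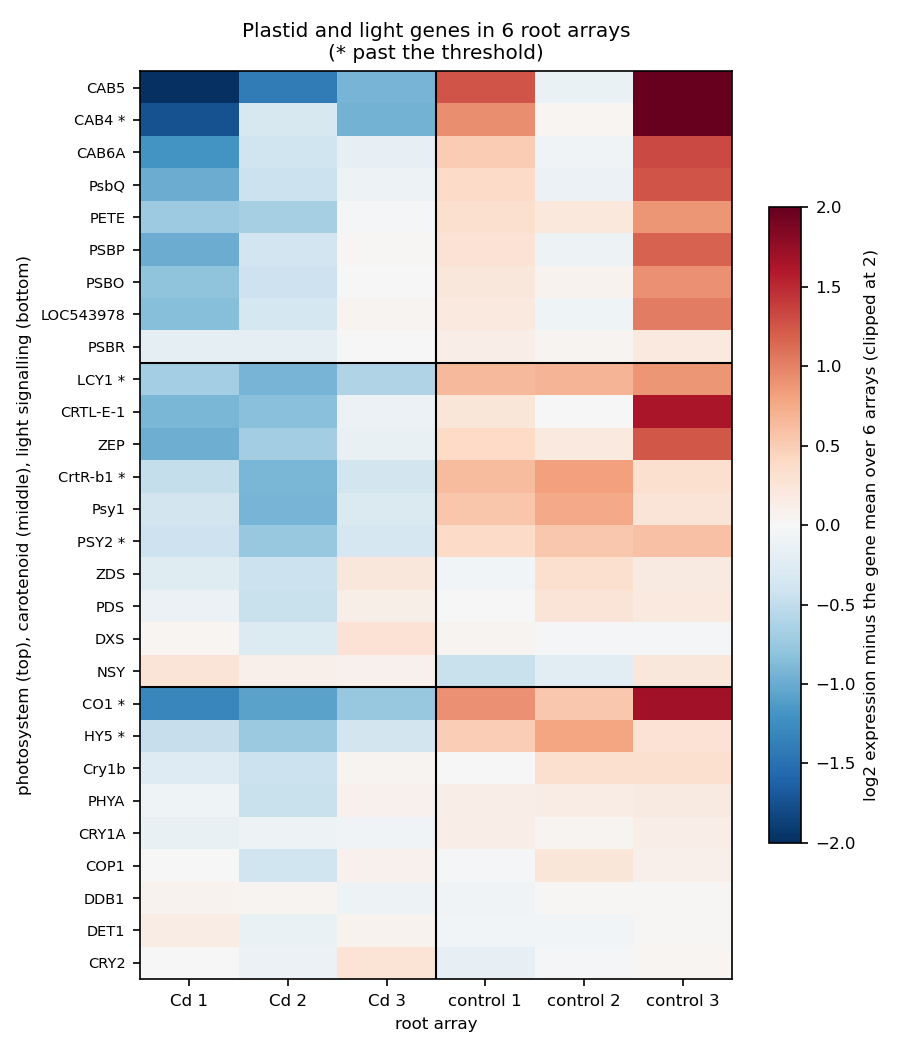
Log2 expression minus the mean of the gene over the 6 root arrays, as colour from blue (low) to red (high, clipped at 2), for photosystem genes (top), carotenoid genes (middle) and light signalling genes (bottom). Columns are the 3 Cd arrays and then the 3 control arrays, and a star marks a gene past the threshold; all 9 photosystem genes are highest on control 3, and most carotenoid genes are lowest on Cd 2.

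Of 9 light signalling genes 2 fell and 0 rose (22.2% called, against 4.62% of genes with a symbol, median -0.22). CIP1 matched this list by its letters and was left out of it, and its fall (-1.76) is given below. CO1, a zinc finger factor related to the flowering regulator CONSTANS, had 2.61, 2.84 and 3.16 in Cd roots, against 4.82, 4.46 and 5.59 in control roots (-2.09, interval -2.77 to -1.41, adjusted p = 0.00629), and it stood above background on 1 Cd array. HY5, the bZIP factor that carries light signals to its target genes, had 8.76, 8.48 and 8.87 in Cd roots, against 9.72, 10.01 and 9.52 in control roots (-1.05, interval -1.54 to -0.56, adjusted p = 0.0322). The groups were apart in both genes. The phytochrome PHYA (-0.30), the cryptochromes Cry1b (-0.42), CRY1A (-0.22) and CRY2 (0.10), and the repressors COP1 (-0.21) and DET1 (0.06) did not pass. HY5 missed the threshold without any single array but Cd 3 (adjusted p 0.0568 to 0.107).

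Hormone lists gave at most 1 call each, all falls. In the lists with a call this was 7.14% to 12.5% of the genes, against 4.62% of genes with a symbol. NCED1, which makes the limiting cut in abscisic acid synthesis, had 4.19, 4.44 and 4.41 in Cd roots, against 5.87, 5.78 and 5.37 in control roots (-1.32, interval -1.72 to -0.93, adjusted p = 0.00479). It was the 1 call among 12 genes of abscisic acid and dehydration (median -0.21, but 0.10 without control 3 and 0.02 with array weights). FLACCA, which activates the last enzyme of that synthesis, lay on the other side at 8.58, 8.33 and 8.28 in Cd roots, against 7.17, 7.46 and 7.55 in control roots (1.0, interval 0.42 to 1.58, adjusted p = 0.0734, and 0.0287 with root arrays alone). DREB1, a dehydration-response factor, had 3.85 ± 0.38 in Cd roots and 4.92 ± 0.45 in control roots (-1.07, adjusted p = 0.0699). The dehydrin TAS14 had 8.93, 8.90 and 3.67 in Cd roots, against 4.68, 4.74 and 7.10 in control roots, with the third array out of line in both groups (1.66, adjusted p = 0.712).

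ACO6, an ACC oxidase that releases ethylene, had 7.12, 6.67 and 7.02 in Cd roots, against 8.29, 8.45 and 8.83 in control roots (-1.59, interval -1.95 to -1.22, adjusted p = 0.000868). All 3 of its probe sets fell, the others by -1.70 (adjusted p = 0.00629) and -2.14 (0.00162). It was the 1 call among 12 ethylene synthesis genes, 3 of which were at background in both groups (median -0.12, or 0 with those at their bound and 0.10 with array weights). ACO5, another ACC oxidase, had 11.97 ± 0.58 in Cd roots and 11.76 ± 0.49 in control roots. The ACC synthase ACS6 had 7.84 ± 0.03 in Cd roots and 8.53 ± 0.08 in control roots, apart beyond both SDs, without passing (-0.69, adjusted p = 0.209, and 0.0285 with root arrays alone). Of 28 ethylene receptor and signalling genes 0 passed (median 0.13), with the receptor ETR4 at 0.87 (adjusted p = 0.187) and the response factor ERF3 at -0.78 (0.233).

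3OH-2, a gibberellin 3-oxidase of the last step to active gibberellin, had 5.97, 5.32 and 5.46 in Cd roots, against 6.98, 7.31 and 7.46 in control roots (-1.67, interval -2.34 to -1.0, adjusted p = 0.0159). GA20OX1, of the step before, had 4.29, 3.65 and 3.13 in Cd roots, against 4.88, 4.92 and 5.08 in control roots (-1.27, adjusted p = 0.367). These enzymes lay lower on every Cd array, and 3OH-2 was the 1 call in 8 gibberellin genes (median -0.33, and -0.09 with array weights). LOX1.1, a lipoxygenase that oxidises fatty acids, had 7.29, 7.54 and 7.73 in Cd roots, against 9.34, 8.92 and 9.93 in control roots (-1.88, interval -2.81 to -0.95, adjusted p = 0.0401). It was the 1 call in 14 jasmonate and lipoxygenase genes (median 0.06, or 0 with genes at background at their bound). OPR3, of jasmonate synthesis, differed by 0.43, and HPL, hydroperoxide lyase, by 0.78 (adjusted p = 0.0882).

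The lipoxygenase loxD had 8.12, 7.47 and 7.50 in Cd roots, against 6.24, 5.87 and 9.50 in control roots (0.50, adjusted p = 0.898), so control 3 alone exceeded the Cd arrays. Of 7 auxin genes 0 passed (median -0.46, and -0.24 without control 3). The auxin-response repressor IAA2 had 6.37, 5.16 and 5.98 in Cd roots, against 7.14, 7.92 and 6.93 in control roots (-1.49, adjusted p = 0.114), the groups apart, and IAA7 differed by -0.78 (0.340). 3OH-2 missed the threshold without Cd 2 (adjusted p = 0.0621) or control 3 (0.0683), and LOX1.1 without any 1 root array but control 2 (0.0561 to 0.165).

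Of 47 cell wall genes 3 rose and 0 fell (median 0.06), and 8 were at background in both groups. The share called, 6.38%, lay near the 4.62% of all genes with a symbol. ext1, an extensin-like protein of root hair walls, had 8.35, 8.31 and 6.68 in Cd roots, against 5.19, 4.35 and 5.97 in control roots, with Cd 3 and control 3 closest to each other (2.61, interval 1.59 to 3.63, adjusted p = 0.0142). PMEU1, a pectin methylesterase, had 9.88, 10.53 and 9.70 in Cd roots, against 9.01, 9.21 and 9.12 in control roots (0.92, adjusted p = 0.0344). TBG1, a beta-galactosidase, had 6.50, 7.25 and 6.48 in Cd roots, against 5.72, 5.98 and 5.42 in control roots (1.04, adjusted p = 0.0296). XTH6, a xyloglucan-modifying enzyme, lay on the other side with 9.10 ± 0.46 in Cd roots and 10.37 ± 0.34 in control roots (-1.27, adjusted p = 0.157). Cd 2 was the highest array for 20 of the 47 genes, against 1985 of all 10038 probe sets. Among the 20 was the expansin EXP5, with 4.44, 7.21 and 4.83 in Cd roots, against 4.05, 3.49 and 5.0 in control roots (1.31, adjusted p = 0.444).

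None of the 3 cell wall calls remained with root arrays alone, where adjusted p was 0.0718 for ext1, 0.0892 for PMEU1 and 0.0925 for TBG1, nor without Cd 1, Cd 2 or control 1, where it lay between 0.0548 and 0.113. PMEU1 also missed the threshold without control 2 (0.0591), and PMEU1 and TBG1 without control 3 (0.107 and 0.116).

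Carbon metabolism had 2 rises and 3 falls among 27 genes (18.5%, against 4.62% of genes with a symbol) and a median of 0.03 (0 with genes at their bound). Beside isocitrate lyase, UCP, an uncoupling protein of mitochondria, rose, with 8.14, 8.06 and 7.98 in Cd roots, against 7.44, 7.44 and 7.23 in control roots (0.69, interval 0.45 to 0.93, adjusted p = 0.00941). chMDH, the malate dehydrogenase of chloroplasts, fell, with 6.35, 6.09 and 7.19 in Cd roots, against 7.94, 7.63 and 8.51 in control roots (-1.49, interval -2.15 to -0.83, adjusted p = 0.0266). BMY3, a starch-cutting beta-amylase, had 8.69, 8.96 and 8.80 in Cd roots, against 9.57, 9.37 and 9.95 in control roots (-0.81, adjusted p = 0.0389). Its other probe sets gave -0.83 and -0.80 without passing (0.0815 and 0.0858). PPCK2, a kinase of phosphoenolpyruvate carboxylase, was at background in Cd roots and had 4.55, 3.78 and 5.24 in control roots (at least 2.28-fold lower, adjusted p = 0.0447).

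Several genes of sugar uptake and use lay higher without passing. The cell wall invertase Wiv-1, which cuts sucrose outside the cell, had 10.15, 9.99 and 9.90 in Cd roots, against 8.41, 8.86 and 8.05 in control roots (1.57, interval 0.65 to 2.49, adjusted p = 0.0751). The hexose transporter HT1 had 11.10, 10.88 and 10.90 in Cd roots, against 9.80, 10.23 and 9.55 in control roots (1.1, adjusted p = 0.0844). HT2 differed by 1.75 (0.171) and the fructokinase FRK1 by 0.60 (0.387). In these 4 genes the groups were apart, and with root arrays alone Wiv-1 (adjusted p = 0.0230) and HT1 (0.0432) passed. AGPL3, a subunit of the starch-synthesis enzyme ADP-glucose pyrophosphorylase, had 6.10 ± 0.58 in Cd roots and 7.16 ± 0.82 in control roots (-1.06, adjusted p = 0.190). UCP missed the threshold without Cd 1 (adjusted p = 0.0535), and chMDH, BMY3 and PPCK2 did so with root arrays alone (0.0689 to 0.0936) and without Cd 1, Cd 2, control 1 or control 3 (0.0685 to 0.166). BMY3 and PPCK2 also missed it without Cd 3 (0.0650 and 0.0841).

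Transport of other nutrients gave 0 calls in 16 genes (median 0.24, and 0.08 without control 1). The ammonium transporter AMT1-2 had 8.15 ± 0.30 in Cd roots and 8.83 ± 0.21 in control roots (-0.67, adjusted p = 0.0838). The phosphate transporter PT1 had 11.28 ± 0.12 in Cd roots and 10.69 ± 0.25 in control roots (0.59, adjusted p = 0.190). APS1, an acid phosphatase, rose, with 8.08, 8.17 and 8.13 in Cd roots, against 7.33, 7.64 and 7.18 in control roots (0.74, interval 0.41 to 1.08, adjusted p = 0.0283). It was the 1 call in 8 genes of phospholipid and phosphate signalling (12.5%, against 4.62% of genes with a symbol, median 0.42). TPSI1, a transcript known to respond to phosphate starvation, had 9.99 ± 0.51 in Cd roots and 10.93 ± 0.33 in control roots (-0.95, adjusted p = 0.212). APS1 did not pass with root arrays alone (adjusted p = 0.0577) or without Cd 1, Cd 2, control 1 or control 3 (0.0851 to 0.112).

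Nitrogen and amino acid genes gave 0 calls in 9 (median 0.24). TD2, a threonine deaminase of tomato defence, had 7.17, 5.78 and 7.96 in Cd roots, against 4.50, 4.20 and 3.97 in control roots, apart by more than 1 log2 unit (2.74, interval -0.03 to 5.52, adjusted p = 0.295). The glutamate dehydrogenase gdh1 had 11.83 ± 0.24 in Cd roots and 10.92 ± 0.29 in control roots (0.91, adjusted p = 0.171). GS2, the plastid glutamine synthetase, had 10.41 ± 0.33 in Cd roots and 11.13 ± 0.36 in control roots (-0.72, adjusted p = 0.103). The groups were apart in all 3. Phenylpropanoid and flavonoid genes held 1 call in 12 (8.33%, against 4.62% of genes with a symbol), LOC543602. Their median was -0.06, or 0 with genes at their bound. Proteases and their inhibitors held 0 in 11 (median 0.12, or 0).

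Genes of growth gave no call. Of 14 cell cycle and histone genes 0 passed, also at an unadjusted p under 0.05 (median 0.26, and 0.13 without control 3), the cyclin CycA2 having 6.66 ± 0.16 in Cd roots and 5.82 ± 0.28 in control roots (0.84, interval -0.32 to 2.01). Of 10 ribosomal and translation genes 0 passed, again also unadjusted, and their differences lay between -0.18 and 0.12.

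**Figure D4:**
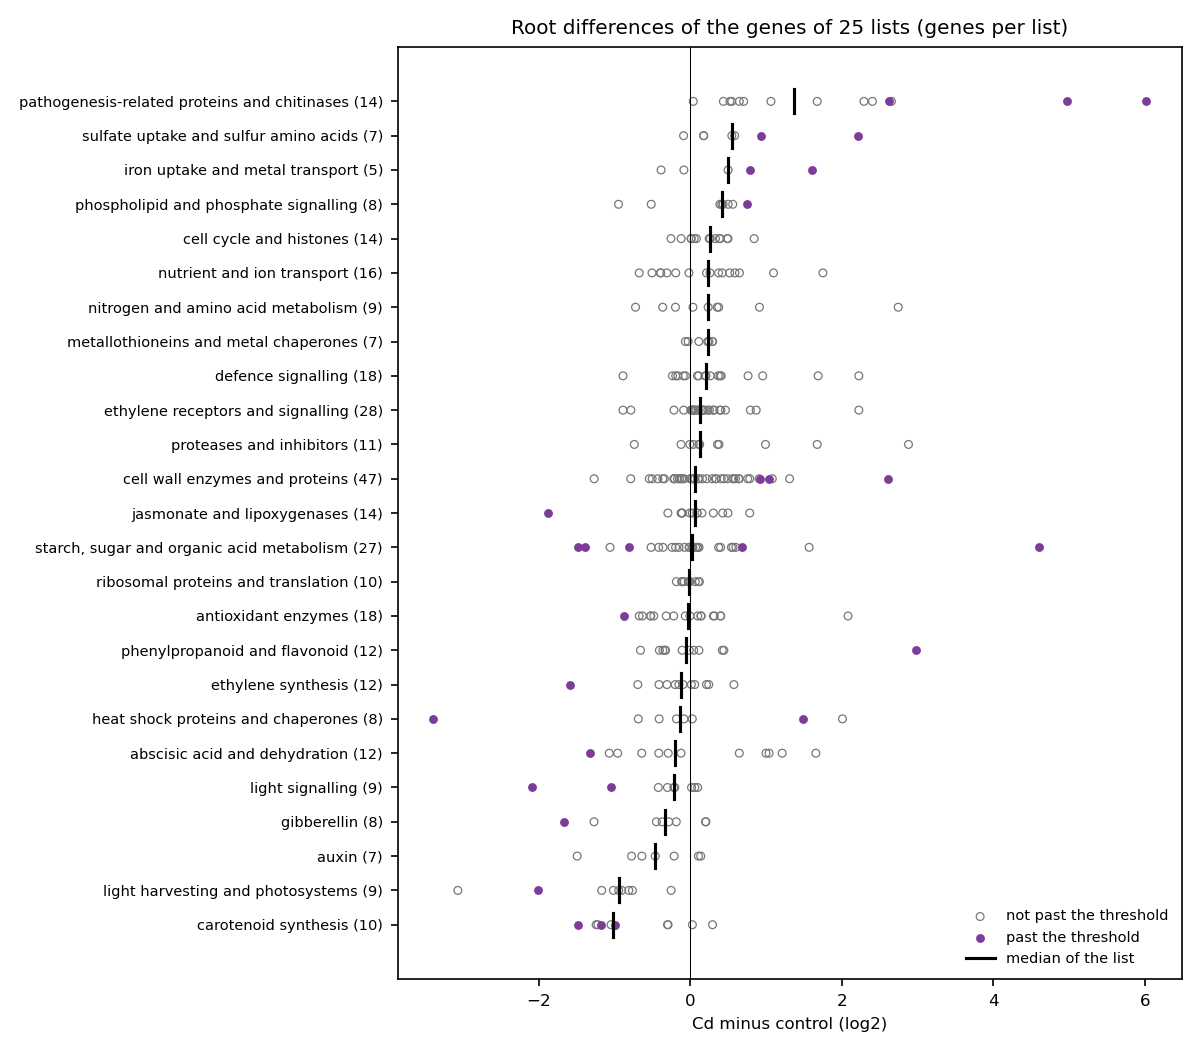
Cd minus control difference (log2, horizontal axis) of every gene of 25 lists, ordered by the median of the list, with the number of genes in brackets. Open grey circles are genes not past the threshold, purple points genes past it and black bars list medians, which run between -1.02 for carotenoid synthesis and 1.37 for pathogenesis-related proteins and chitinases.

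A few called genes have no role in the tables used. CIP1 had the smallest p among named genes, with 8.81, 8.75 and 9.02 in Cd roots, against 10.62, 10.66 and 10.58 in control roots (-1.76, interval -2.02 to -1.50, adjusted p = 7.73e-05). Its control arrays spanned less than 0.1 log2 units, and its dimmer probe set fell by -2.02 (adjusted p = 8.66e-05). LOC778303 fell by -2.14 (adjusted p = 0.0157), with 4.20, 3.91 and 4.06 in Cd roots, against 7.05, 5.18 and 6.35 in control roots. LOC543930 fell by -1.30 (7.99 ± 0.47 in Cd roots and 9.29 ± 0.27 in control roots, adjusted p = 0.0284). LTC rose by 0.53 (10.82 ± 0.06 in Cd roots and 10.29 ± 0.05 in control roots, 0.0370), and LOC544309 fell by -0.49 (9.06 ± 0.14 and 9.55 ± 0.08 in the same order, 0.0424). The last 2 were the smallest calls, carried by arrays that agreed closely.

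Of these, CIP1 alone passed with root arrays alone (adjusted p = 0.00360), where the others, Dif54 included, had 0.0555 to 0.124. Dif54 missed the threshold without Cd 1, Cd 2, control 1 or control 2 (0.105 to 0.188) and LOC778303 without Cd 1, Cd 2 or control 3 (0.0587 to 0.0621). LOC543930 missed it without any single array but Cd 3 (0.0503 to 0.123), LOC544309 likewise (0.0704 to 0.195) and LTC without any array (0.0657 to 0.124).

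Where a gene had several probe sets, they mostly gave 1 sign. Of 82 such genes, all probe sets shared a sign in 57, and the median spread among the probe sets of a gene was 0.18 log2 units. A call on at least 1 probe set occurred in 7 genes. In ACO6, CIP1 and LOC543602 all probe sets passed. In Psy1 and LOC543942 the brightest probe set did not pass and another did. For LOC543942 the brighter gave -1.70 (adjusted p = 0.0700) and the dimmer -2.07 (0.0380), with Cd 1 and Cd 3 at background in both.

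The mean level of each probe set in untreated leaves did not enter the root difference. The spread of the leaf arrays did enter the calls, and leaf levels were not compared for calls from root arrays alone. Leaf levels differed between rises and falls. Probe sets that rose in Cd roots had a median of 5.62 in leaf controls, and those that fell had 8.14, against 6.88 over all probe sets tested. A level above 10 in leaf controls was found for 5 of 107 rises (4.67%) and 48 of 197 falls (24.4%), against 895 of all 10038 (8.92%). At background in leaf controls were 24 rises (22.4%) and 20 falls (10.2%), against 987 of all (9.83%). The 18 named rises had a median of 6.08 in leaf controls, with 5 at background, among them NRAMP1 at 2.03 and ST1 at 2.40, and 2 (11.1%) above 10, PR1b1 at 11.19 and PMEU1 at 10.19. Among falls, SODCP.2 had 11.18, ACO6 11.23 and LOC543930 10.04. The other 149 falls lay at or under 10 in leaf controls, such as HY5 at 6.88 and LOX1.1 at 4.95. Root control levels differed the same way, with medians of 6.28 for rises and 8.35 for falls, so level and tissue cannot be told apart in this description.

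**Figure D5:**
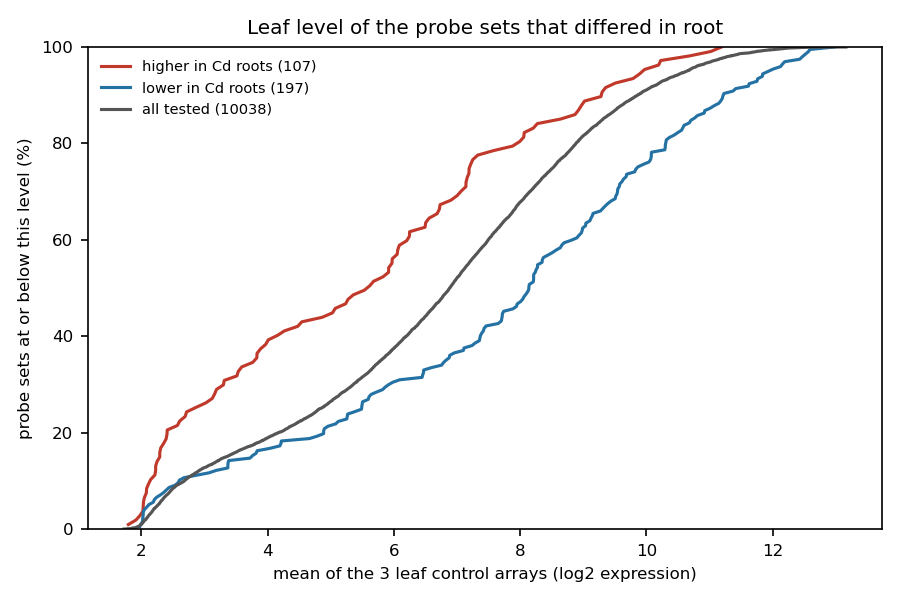
Share of probe sets (percent, vertical axis) at or below a given mean level in the 3 leaf control arrays (log2 expression, horizontal axis). The red line is the 107 probe sets higher in Cd roots (median 5.62), the blue line the 197 lower (median 8.14) and the grey line all 10038 tested (median 6.88).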

How the data were processed

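Transcripts were read on Affymetrix tomato arrays with 1 sample each. Per the labels' protocols, RNA was purified on RNeasy columns and labelled as biotinylated cRNA. The authors deposited log2 expression values for each probe set. MAS5 and RMA are named, per the submitters' processing notes, with no role or version. The values were used unchanged, on 10038 of 10209 probe sets, after 171 control probe sets were left out. Symbols come from the platform's annotation, synonyms from a current gene table (885 of 909 named probe sets matched), and a gene is represented by its brightest probe set, by mean over 12 arrays. PRO1, shared by 2 gene records, was left out.

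Group means were fitted with limma 3.58.1 (R 4.3.3) over all 12 arrays (4 groups of 3), which share the spread, with empirical Bayes moderation. P-values are two-sided and Benjamini-Hochberg adjusted over 10038 probe sets, and calls were made under 0.05. Intervals are 95% and per gene. Of the leaf arrays, the 3 titled Cd carry a contradictory source label (without Cd), and they enter only the shared spread here. Where all 3 arrays of a group lie at or below background, the fold is a bound. The fit was tested on simulated data with normal noise. It recovered 59.7% of shifts of 1 log2 unit, 95.5% of shifts of 2 and 98.5% of shifts of 3. A list without calls can thus hold differences of about 1 that went uncalled. These shares are averages over probe sets, and genes with a wide spread can miss the threshold at larger differences. Uncalled differences reached 2.2 in defence signalling and 2.7 in nitrogen and amino acid genes, both lists without a call. Tables and plots used Python 3.11.15, pandas 2.3.3 and matplotlib 3.10.9. The number of arrays limits the precision.

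Named are every gene past the threshold, up to 6 members of each of 25 gene lists with the largest differences, and the 2 unnamed probe sets that rose most and the 2 that fell most. Other genes named were picked with their values in view. The members and lists were chosen with earlier results of these data known, and 53 matches by letters alone were left out of lists. Whether equal array numbers pair the root arrays is not stated. The correlations of deviations for equal numbers (0.00, -0.26 and 0.06) cannot decide it with 3 arrays per group. Alternatives were root arrays alone, quantile normalization, median centring, a filter on dim probe sets, array weights, a variance trend, a replicate block, leaving out each root array and, added after seeing the data, leaving out the leaf arrays titled Cd.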

Additional observations from a re-analysis of the deposited data

How the results depend on the processing

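The count of 304 probe sets and 37 named genes was 303 and 37 with arrays centred on their medians, 322 and 38 with dim probe sets filtered out (8973 tested), 333 and 42 with a variance trend, 207 and 31 with quantile normalization within root, and 262 and 27 with a replicate block. It was 202 and 30 with root arrays alone, 3745 and 330 with array weights, and 428 and 58 without the leaf arrays titled Cd, where CAB4, Dif54, LOX1.1, MTSHP and PPCK2 did not pass (adjusted p 0.0550 to 0.0652). Array weights ran between 0.518 and 8.12 in root, highest for control 1 and Cd 1 (5.60). Leaving out single root arrays gave 85 (without Cd 1) to 409 probe sets (without Cd 3) and 13 to 40 named genes. Rises made up 35.2% of calls, against 53.5% with root arrays alone, 50.7% after quantile normalization, 50.0% with array weights, 28.6% with the replicate block and 27.1% (without Cd 3) to 45.9% (without Cd 1) with single arrays left out. None of the 37 genes changed sign under the 14 alternatives, which was largely fixed in advance. Root arrays alone, the dim filter, the variance trend, the block and leaving out leaf arrays keep the difference itself unchanged. Where the groups are apart, leaving out or weighting root arrays cannot turn its sign. The 8 genes that passed under all 14 alternatives were ACO6, CIP1, CO1, LCY1, LOC543602, LOC543717, LOC544276 and NCED1. PR1b1 and PSY2, which passed without any single array, had adjusted p = 0.0544 and 0.0509 under the replicate block, and PR1b1 differed by 3.25 with array weights. The labels do not say whether equal array numbers are pairs. The highest correlation of deviations was that of Cd 1 with control 2 (0.41), which cannot decide it. Under the block 16 of the 37 passed and 21 lost the call. The paragraphs on single genes above do not list the block. Among the genes lost were UCP, ST1, ST2, FER, NRAMP1, HY5 and CrtR-b1 (limma adjusted p 0.0524 to 0.0750). Of 118 other named genes that did not pass, 74 passed under at least 1 alternative, 26 of them under one other than array weights, and 9 changed sign without passing either way. ER-SHSP, at -0.18, was 0.59 with array weights (adjusted p = 0.0431), and the cause was not tested. Some list medians also changed sign under an alternative. Those close to 0 were antioxidant enzymes, jasmonate and lipoxygenases, phenylpropanoid and flavonoid genes, ribosomal proteins and carbon metabolism. The others were abscisic acid and dehydration (-0.21) and ethylene synthesis (-0.12).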

Other observations

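Unnamed probe sets made up 261 of the 304 that passed and 9129 of the 10038 tested. Of the 261, LesAffx.22812.2.S1_at had 6.77, 7.89 and 6.66 in Cd roots, against 3.53, 3.20 and 3.01 in control roots (difference 3.86, limma adjusted p = 0.0141), with 1 of 3 control arrays above background. Les.435.1.S1_at had 8.96, 11.05 and 10.003 in Cd roots, against 7.69, 5.70 and 6.54 in control roots (3.36, adjusted p = 0.0186). Among the falls, Les.4868.1.S1_at had 5.85, 5.69 and 6.37 in Cd roots, against 9.28, 8.46 and 10.28 in control roots (-3.37, adjusted p = 0.00387). LesAffx.40272.1.S1_at had 3.23, 2.85 and 3.47 in Cd roots, against 5.96, 6.73 and 6.40 in control roots (-3.18, adjusted p = 7.75e-05), with 1 of 3 Cd arrays above background. It was at 2.03 ± 0.11 in leaf controls.

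Single arrays differed in stress genes that did not pass. ER5, a dehydration-related gene, had 4.14, 5.13 and 3.49 in Cd roots, against 3.90, 4.12 and 7.61 in control roots, and XTH3 had 8.07, 7.45 and 7.34 in Cd roots, against 6.84, 7.82 and 10.55 in control roots. Both were highest on control 3, as was loxD. The lipid transfer proteins LE16 and TSW12 were highest on Cd 2, LE16 with 3.18, 6.80 and 3.10 in Cd roots, against 3.01, 3.42 and 3.0 in control roots, and TSW12 with 3.93, 5.60 and 3.70 in Cd roots, against 3.03, 3.42 and 3.66 in control roots. Over all probe sets, control 3 was the lowest root array for 3016 and Cd 2 for 2336 of 10038. Markers of trichomes (MTS1 and SSTLE1) were at background on all root arrays, the phloem transporter SUT2 had 7.70 ± 0.13 in Cd roots and 7.49 ± 0.17 in control roots, and LAT61, named for late anther expression, had 9.04 ± 0.15 and 9.40 ± 0.08 in the same order.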
